A study of Rattus norvegicus with 65 samples.

Results

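Ribosome biogenesis, the making of ribosomes in the nucleolus, was followed here through the transcripts of a hand-written list of 40 genes for rRNA transcription, rRNA processing and nucleolar proteins. Of these, 35 had a row in the table of 14554 genes and are described, while Nop2, Ebna1bp2, Heatr1, Npm1 and Ddx21 were not analysed here. RNA was sequenced from primary cardiomyocytes of newborn rats after 6 or 24 hours in 10 mM 5-fluorouracil (5FU), 2.5 mM acetaminophen (Ace) or 1.25 μM doxorubicin (Dox). The controls held the solvent alone, at 1% DMSO as used for 5FU (DMSO1) or at 0.25% as used for Ace and Dox (DMSO2). Each of the 10 groups held 6 or 7 of the 65 libraries. Litters were pooled into a shared cell suspension and the plated cells went without serum overnight before any drug was added. The replicates are therefore separate cultures of the same pool, and p-values measure only the spread between these cultures.

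RNA polymerase I (Pol I) transcribes the rDNA into a long precursor that is folded, modified and cut while ribosomal proteins join it. Small nucleolar ribonucleoproteins (snoRNPs) guide the chemical marks on the rRNA, the small subunit processome builds the 40S subunit, and a separate chain of factors builds the 60S subunit. Making ribosomes is among the costliest tasks of a growing cell, and in heart muscle it rises when myocytes enlarge. 5FU is known for entering RNA and disturbing rRNA processing, and Dox for binding DNA and blocking topoisomerase II. PolyA RNA was measured, so the values below are mRNA levels of the factors and not rRNA.

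Library totals ran from 14332827 to 25738297 counts, and 34 of the 35 genes had at least 10 counts in every library. The exception was Nhp2, with a lowest count of 7. Distance to the mean of the other libraries of the group (root mean square over all genes, log2 CPM) had a median of 0.310 and passed 0.4 in 5 libraries, namely library 1 of DMSO1 at 24 hours, library 1 of 5FU at 6 hours, library 3 of DMSO1 at 6 hours and library 7 of Dox at each time. The first of these held the p53 targets Mdm2 and Cdkn1a at 191 and 699 CPM (a gene's count set against the scaled library total), against 51.6 to 59.7 and 95.8 to 114 in the other 5 libraries of its group. It lay 46.6% of the way from the DMSO2 mean to the 5FU mean at 24 hours over the 1976 genes that separate those groups by more than 1 log2 unit, and the other 5 lay between 8.64% and 13.6%. It was kept under its label, and some of the counts that rest on these libraries are also given without them. Counts for the controls over time, for Dox between the times and for Dox minus 5FU are given with them only. Cardiomyocyte markers were present in every library (10202 to 61748 summed CPM over 11 genes), with fibroblast, endothelial, macrophage and smooth muscle markers beside them. Ttn and Pecam1 were not analysed here.

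Promoter sequences are shown for 4 of the genes, because the E-box CACGTG, the letters bound by Myc family proteins, was found in 8 of the 32 promoters that could be matched (25%), against 7.87% of the 11403 promoters of genes in the count table. Each run gives the 250 bases before the transcript start listed with RefSeq's promoters of rat assembly GRCr8, 5′ to 3′ on the strand of the gene, with an E-box in capitals where present (the letters are the same on both strands). Nop16 and Gnl3 had higher mRNA levels with Dox at 24 hours and Polr1a and Mybbp1a lower, and a promoter of each pair holds the E-box, 25 bases before the start in Gnl3 and 156 in Mybbp1a.
Nop16 (chr17:10027808-10028057, plus strand): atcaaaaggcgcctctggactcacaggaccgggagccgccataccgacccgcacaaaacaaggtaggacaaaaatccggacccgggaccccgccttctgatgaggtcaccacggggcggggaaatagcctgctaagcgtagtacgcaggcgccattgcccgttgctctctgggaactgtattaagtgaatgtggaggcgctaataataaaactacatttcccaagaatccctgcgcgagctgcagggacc
Gnl3 (chr16:6219783-6220032, minus strand): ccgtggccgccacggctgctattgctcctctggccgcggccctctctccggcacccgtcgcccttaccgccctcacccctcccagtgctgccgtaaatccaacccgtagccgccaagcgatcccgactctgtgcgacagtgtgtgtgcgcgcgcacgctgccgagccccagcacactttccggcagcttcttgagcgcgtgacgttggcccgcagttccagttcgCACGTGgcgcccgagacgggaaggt
Polr1a (chr4:105508055-105508304, plus strand): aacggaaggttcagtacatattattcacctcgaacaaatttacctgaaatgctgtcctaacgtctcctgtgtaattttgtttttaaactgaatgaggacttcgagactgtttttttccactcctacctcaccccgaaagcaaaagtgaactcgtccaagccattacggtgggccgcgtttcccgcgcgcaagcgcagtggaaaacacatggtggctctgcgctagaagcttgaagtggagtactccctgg
Mybbp1a (chr10:57555208-57555457, plus strand): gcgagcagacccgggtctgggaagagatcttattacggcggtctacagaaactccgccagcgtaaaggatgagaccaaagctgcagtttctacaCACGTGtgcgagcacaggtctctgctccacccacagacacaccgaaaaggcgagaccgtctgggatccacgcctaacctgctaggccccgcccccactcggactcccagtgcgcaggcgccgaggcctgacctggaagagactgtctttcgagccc
The other promoters with an E-box were those of Dkc1, Nle1, Pes1, Rrp1, Utp20 and Utp4. Among members called higher with Dox at 24 hours the E-box was in 3 of 23 promoters, and among those called lower in 3 of 6. The ETS core CCGGAAG (either strand) was in 10 of 32 promoters (31.2%) against 13.7% of the genes in the table, and the palindrome CTCGCGAG in 1 of 32 (3.12%, that of Noc2l) against 1.43%. Wdr43, Bop1 and Rrs1 are named only. In 12 of the 32 the listed start lies inside the outermost annotated end of the gene, by 43 (Rrn3) to 5804 (Utp4) bases and by 247 in Gnl3, so that such a window can lie within the gene as annotated. The start of Nle1 is displaced by 2382 bases, so all 3 E-boxes of members called higher with Dox at 24 hours stand before such a start. The starts of Nop16, Polr1a and Mybbp1a are the outermost. A match is a description of the letters and not a bound site.

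**Figure D1:**
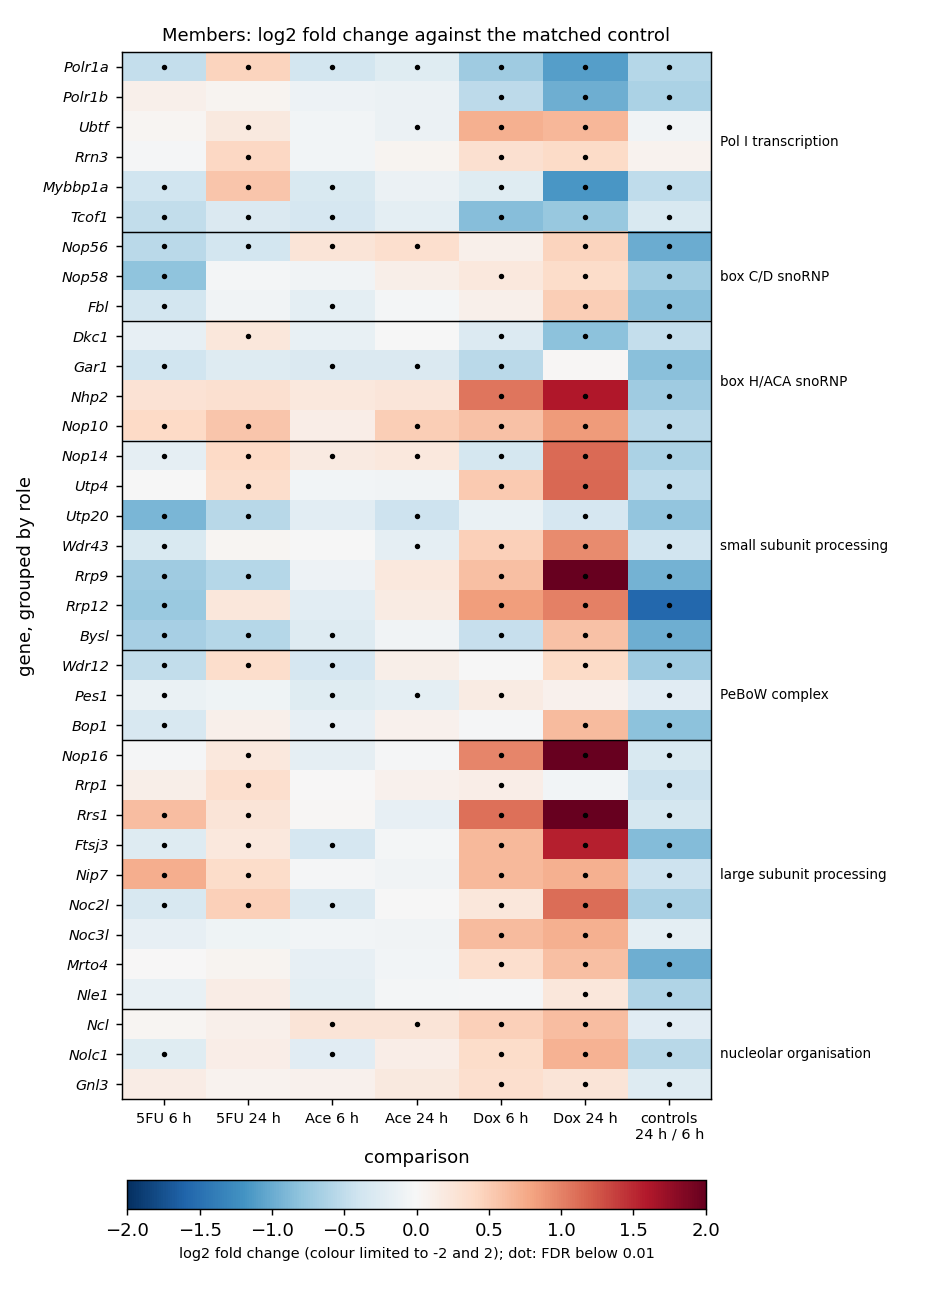
Log2 fold change of each of the 35 genes (rows, grouped by role) in the 6 drug comparisons and in the controls at 24 against 6 hours (columns). Red is higher and blue lower than the matched control, colours stop at -2 and 2, and a dot marks an FDR below 0.01; the Dox columns hold the deepest reds, the 24-hour control column is blue throughout except for Rrn3.

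Without any drug, the mRNA levels of the ribosome biogenesis genes were lower at 24 than at 6 hours. In the controls, 34 of 35 genes fell and none rose (FDR below 0.01, edgeR quasi-likelihood test over all genes), while 31.9% of all genes fell and 32.7% rose. No gene of the list rose at an unadjusted p below 0.05 either, and DESeq2 called none higher. The median log2 fold change was -0.56, against 0.01 over all genes. Rrp12, a factor that helps pre-40S particles mature and leave the nucleus, had 42.3, 77.02 and 89.3 CPM (lowest, median and highest library) in DMSO1 and 38.9, 39.7 and 46.6 in DMSO2 at 6 hours. At 24 hours it had 17.2, 18.9 and 20.6 in DMSO1 and 16.1, 18.03 and 20.7 in DMSO2. No 24-hour control reached the lowest 6-hour control, and the fall was the largest of the list (-1.57 ± 0.0731, FDR = 1.95e-28). Nop56, a core protein of the box C/D snoRNPs, fell by 1.0 on the log2 scale, and Bysl and Mrto4, which act late in 40S and 60S assembly, had log2 changes of -0.98 and -0.97. The exception was Rrn3, the factor that brings Pol I to the rDNA promoter, with 0.07 ± 0.0423, FDR = 0.108. Ribosomal protein genes fell with them, 55 of 56, with a median of -0.37. Cell type markers also moved with time in the controls, with macrophage markers higher in 9 of 10 and fibroblast markers higher in 8 and lower in 1 of 10. Smooth muscle markers were higher in 3 and lower in 4 of 7, cardiomyocyte markers in 4 and 3 of 11 and endothelial markers in 4 and 3 of 9. The part of these shifts was not tested.

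The controls were compared at the 2 DMSO shares, since 5FU has its own. With 1% against 0.25% DMSO, 11 of 35 were higher and none lower, over a background of 9.87% of all genes higher and 6.6% lower. None was lower at an unadjusted p below 0.05, and DESeq2 called none lower. The 11 were Rrp12, Nop58, Nop56, Bysl, Gnl3, Wdr12, Noc3l, Bop1, Wdr43, Ftsj3 and Nop14. Rrp12 differed most (0.83 ± 0.0964, FDR = 1.27e-09), and the others differed by 0.17 to 0.33. The count was 18 without the 5 distant libraries, but 3 higher and 1 lower when libraries were scaled by their totals alone, and 4 without library 2 or 6 without library 6 of DMSO1. At 24 hours no gene of the list was called (background 0.137% higher and 0.295% lower), 6 had an unadjusted p below 0.05, and DESeq2 called none. The largest difference was that of Nhp2, -0.28 ± 0.258. The count was also 0 without library 1 of DMSO1.

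Rrp12 split the 6-hour libraries of 2 groups. Library 3 of DMSO1 had 42.3 CPM, inside the range of DMSO2, and the other 5 had 67.4 to 89.3. Library 7 of Dox had 43.8 CPM and the other 6 had 68.9 to 88.9. The 7 smooth muscle markers were Myh11, Cnn1, Acta2, Tagln, Smtn, Des and Rgs5, and which cells carried these transcripts was not tested. Their summed level moved the same way as Rrp12, with 4217 CPM in library 3 of DMSO1 against 6039 to 9759 in the other 5. It was 4351 CPM in library 7 of Dox against 7259 to 8640 in the others, and 3403 to 4195 in DMSO2 and 3139 to 3861 in Ace. Between the DMSO shares at 6 hours, smooth muscle markers were higher with 1% in 4 and lower in 1 of 7, cardiomyocyte markers higher in 4 and lower in 1 of 11, fibroblast markers lower in 7 of 10 and endothelial markers lower in 6 of 9. No macrophage marker of 10 was called. None of these markers was at 0 in all libraries of any group, and their part in the differences at 6 hours was not tested.

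**Figure D2:**
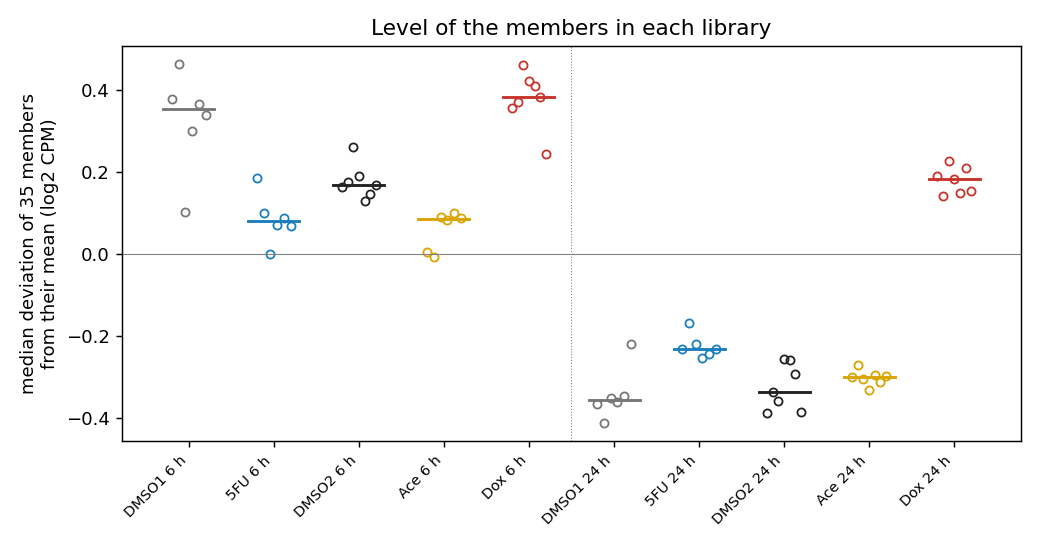
Median over the 35 genes of the deviation from each gene's mean over all libraries (log2 CPM, y axis) for each library (circles), by group (x axis), with a bar at the group median. The 6-hour groups lie at or above -0.01, the 24-hour groups lie below 0 except Dox, whose 7 libraries lie between 0.14 and 0.23.

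Over all 35 genes, the median deviation per library summarised the groups. At 6 hours it ran from 0.10 to 0.46 in DMSO1, from -0.001 to 0.184 with 5FU, from 0.13 to 0.26 in DMSO2, from -0.01 to 0.10 with Ace and from 0.24 to 0.46 with Dox. Dox and DMSO1 overlapped there, and Ace lay wholly under DMSO2. At 24 hours DMSO1 ran from -0.41 to -0.22, 5FU from -0.26 to -0.17, DMSO2 from -0.39 to -0.26 and Ace from -0.33 to -0.27. Dox, at 0.14 to 0.23, was the only 24-hour group at the height of the 6-hour groups.

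Dox at 24 hours gave the largest changes, in both directions. Of the 35 genes, 26 rose and 6 fell, while 40.4% of all genes rose and 41% fell. The median log2 fold change was 0.60, against 0.00 over all genes. Processing and assembly factors made up most of the genes that rose, and 4 of the 6 genes of the Pol I group fell. Against all 13 control libraries of both DMSO shares, 22 genes lay wholly above and 5 wholly below, as did 30.7% and 30.8% of all genes. Gar1, Pes1 and Rrp1 did not pass the test. With the 5 distant libraries left out, 27 rose and 6 fell.

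The steepest rises were in factors of both subunits. Nop16, a 60S assembly factor, had 26.9, 28.3 and 30.1 CPM in DMSO2 and 198, 222 and 268 with Dox, 7.91-fold higher (2.98 ± 0.067, FDR = 2.53e-46). No other group at either time exceeded 72.7 CPM. Rrp9, a protein of the U3 snoRNP on which the first cuts of the small subunit rRNA depend, had 14.6, 16.6 and 17.9 CPM in DMSO2 and 99.3, 106 and 140.4 with Dox, 6.87-fold higher (2.78 ± 0.0747, FDR = 4.17e-42). Rrs1, which helps bring the 5S rRNA particle into the 60S precursor, had 16.6, 20.1 and 22.4 CPM in DMSO2 and 89.6, 98.5 and 107 with Dox, 4.98-fold higher (2.32 ± 0.07, FDR = 2.11e-39). The Dox libraries of all of these genes lay far above every other library at 24 hours.

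Of the 9 genes of 60S assembly, 8 rose and none fell, with a median of 0.71. Ftsj3, an rRNA methyltransferase of the 60S pathway, had 37.1 to 43.7 CPM in DMSO2 and 109 to 129.6 with Dox (1.56 ± 0.0539). Noc2l, which escorts 60S precursors, had 37.3 to 42.7 CPM in DMSO2 and 76.1 to 91.6 with Dox (1.11 ± 0.0407). Its partner Noc3l, Nip7 and Mrto4 rose by 0.6 to 0.71 on the log2 scale, and Nle1, a late 60S factor, rose by 0.23. Rrp1 had -0.06 ± 0.0449. In the PeBoW complex, which is needed to mature the large subunit rRNA, Bop1 and Wdr12 rose (0.64 ± 0.044 and 0.38 ± 0.0648). Pes1, the remaining protein, had 0.09 ± 0.0402, FDR = 0.0419, and 0.11 with an FDR of 0.00703 without the 5 distant libraries.

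Of the 7 small subunit genes, 6 rose, with a median of 1.004. Besides Rrp9 they included Utp4 and Wdr43, which link the processome to rDNA transcription (1.15 ± 0.0522 and 0.95 ± 0.0535). Nop14, a processome protein, had 31.1 to 34.8 CPM in DMSO2 and 66.5 to 79.2 with Dox (1.14 ± 0.0435), Rrp12 had 1.0 ± 0.1 and Bysl 0.58 ± 0.06. Utp20, a very large scaffold of the processome, was the one that fell, with 24.7 to 29.3 CPM in DMSO2 and 19.3 to 23.2 with Dox (-0.33 ± 0.071, FDR = 2.68e-05). The groups of Utp20 did not overlap, but its Dox libraries overlapped those of DMSO1, which had 21.6 to 27.9 CPM.

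All 3 box C/D snoRNP proteins, which guide 2′-O-methylation, rose: Fbl, the methyltransferase, with 34.3 to 40.1 CPM in DMSO2 and 49.2 to 53.9 with Dox (0.49 ± 0.0621), Nop56 with 0.44 ± 0.0608 and Nop58 with 0.37 ± 0.0657. In the box H/ACA class, which guides pseudouridylation and also serves telomerase, Nop10 and Nhp2 rose and Dkc1 fell. Nop10 had 53.8 to 67.9 CPM in DMSO2 and 97.4 to 119 with Dox (0.86 ± 0.0609). Nhp2, the gene of lowest counts, had 0.932 to 3.02 CPM in DMSO2 and 4.93 to 10.7 with Dox with the largest error of the list (1.6 ± 0.22). Dkc1, the pseudouridine synthase itself, had 105, 114 and 115 CPM in DMSO2 and 51.9, 63.9 and 73.02 with Dox, without overlap (-0.82 ± 0.0596, FDR = 5.48e-20). Gar1, the other core protein, had 0.02 ± 0.085. The abundant nucleolar proteins Ncl (nucleolin) and Nolc1 (a snoRNP chaperone) rose by 0.61 and 0.7, and Gnl3 (nucleostemin) by 0.26.

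The Pol I group moved both ways, with a median of -0.87. Polr1a, the largest Pol I subunit, had 28, 33.4 and 37.1 CPM in DMSO2 and 13.6, 16.2 and 17.2 with Dox, 0.467 times the control (-1.1 ± 0.0751, FDR = 3.80e-21). Polr1b, a large partner subunit, had 12.8, 13.98 and 15.6 CPM in DMSO2 and 4.92, 6.97 and 9.35 with Dox (-0.98 ± 0.0792, FDR = 6.11e-18). Neither overlapped its control, and both lay below all 13 control libraries. Mybbp1a, a nucleolar protein found with the Pol I machinery, had 107, 117 and 122 CPM in DMSO2 and 40.8, 54.1 and 58.98 with Dox, the largest fall of the list (-1.17 ± 0.0489, FDR = 7.28e-32). Tcof1 (treacle), which keeps Pol I and its factor UBF at the rDNA, had 34.7, 38.9 and 42.95 CPM in DMSO2 and 16.8, 23.4 and 25.7 with Dox (-0.76 ± 0.0727). All 4 of these genes were lower in every Dox library than in any control. Ubtf and Rrn3 moved the other way. Ubtf, which encodes UBF, had 149, 149.9 and 152 CPM in DMSO2 and 221, 233 and 266 with Dox (0.66 ± 0.036, FDR = 7.00e-26), and Rrn3 had 75.97, 77.7 and 83.1 CPM in DMSO2 and 94.2, 103 and 110.0 with Dox (0.39 ± 0.0574).

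Marker genes of several cell types were far lower in the same Dox libraries. All 11 cardiomyocyte markers were lower, with a summed level of 10202 to 13772 CPM against 38647 to 50918 in DMSO2. Fibroblast markers were lower in 9 of 10, endothelial in 8 of 9 and macrophage in 9 of 10, while 5 of 7 smooth muscle markers were higher and 1 lower. No marker was at 0 in all libraries of a group. The part of these shifts in the changes of the ribosome biogenesis genes was not tested, and in bulk RNA fewer cells of a type and less RNA per cell cannot be told apart.

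**Figure D3:**
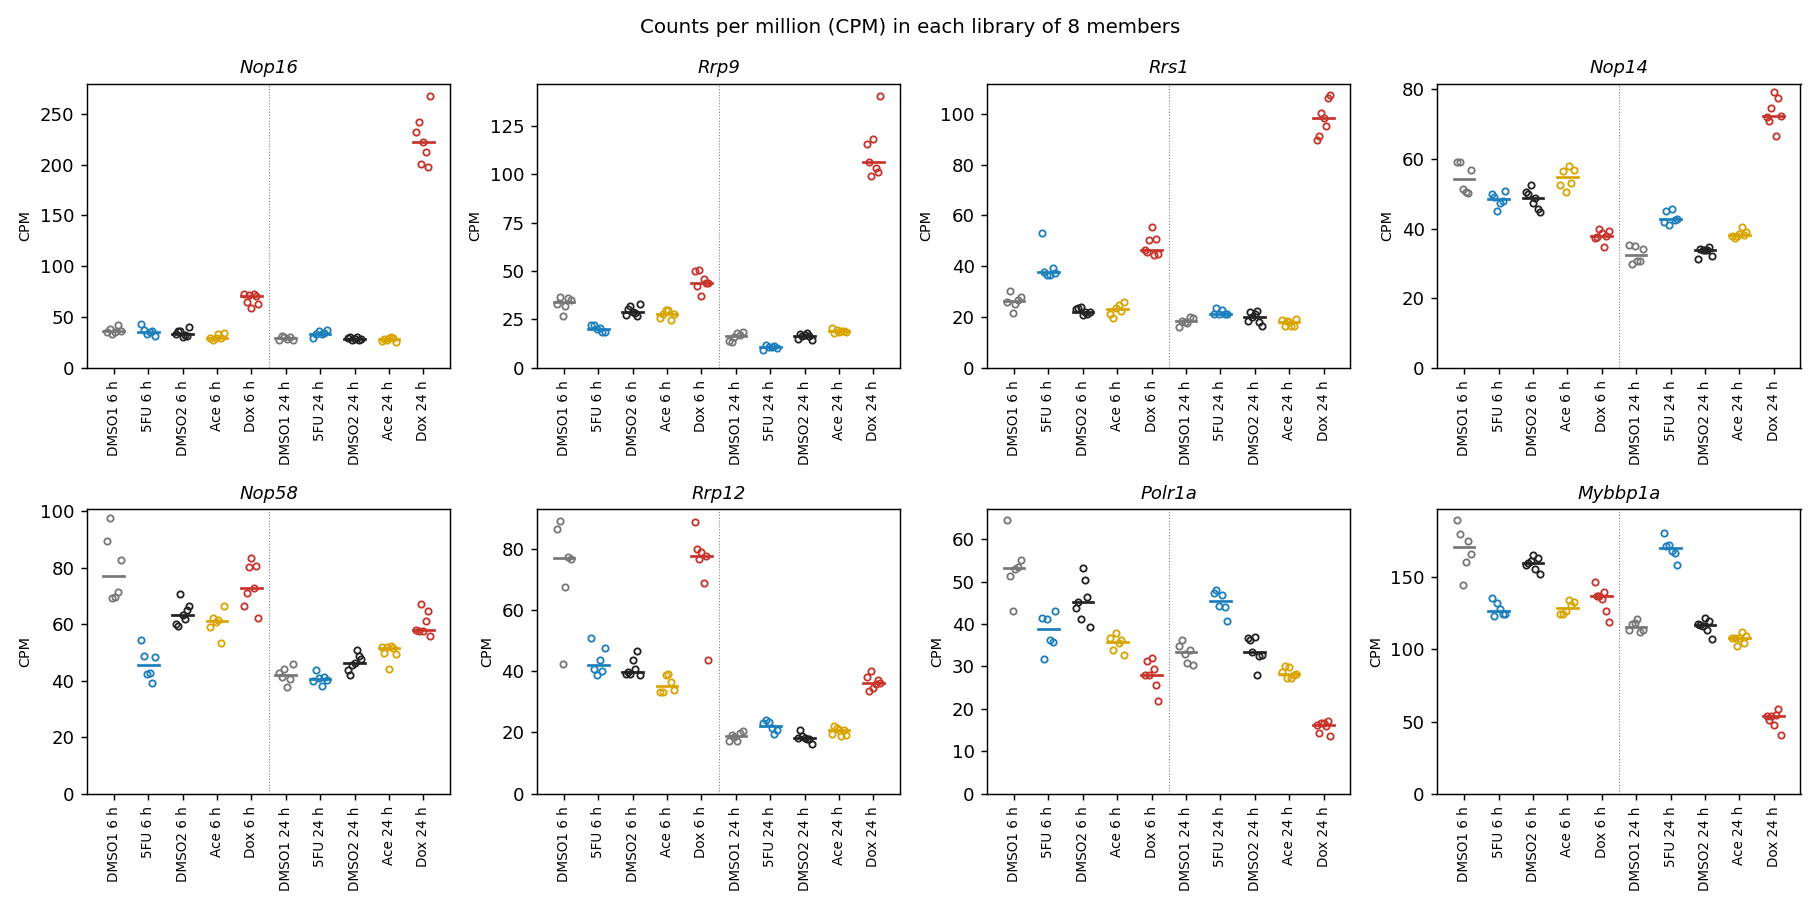
CPM (y axes, from 0) of 8 genes in every library (circles) of the 10 groups (x axes), with a bar at the group median and a dotted line between 6 and 24 hours. Nop16, Rrp9 and Rrs1 stand highest with Dox at 24 hours, Polr1a and Mybbp1a lowest, and Rrp12 shows library 3 of DMSO1 and library 7 of Dox at 6 hours near 43 CPM.

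After 6 hours of Dox, 21 of the 35 genes were already higher and 8 lower, over a background of 31.5% higher and 32.7% lower. The median log2 fold change was 0.22. Scaling by library totals alone lowered the median of all genes by 0.15 and gave 17 higher and 11 lower, and then Nop58, Pes1, Rrp1 and Noc2l no longer passed, while Utp20, Bop1 and Nle1 became lower. The counts were again 21 and 8 when the 5 distant libraries were left out. Of the genes called higher, 10 lay wholly above both control groups at 6 hours (14.6% of all genes did), and they were Ftsj3, Nhp2, Nip7, Noc3l, Nop10, Nop16, Rrp9, Rrs1, Ubtf and Utp4.

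Rrs1 and Nop16 again led. Rrs1 had 20.7, 22.2 and 24 CPM in DMSO2 and 44.6, 46.2 and 55.5 with Dox (1.11 ± 0.0689, FDR = 2.34e-22). Nop16 had 30.2, 33.6 and 40.5 CPM in DMSO2 and 59.04, 70.9 and 72.7 with Dox (0.98 ± 0.0643, FDR = 3.18e-21). Rrp12 was also higher than in DMSO2 (0.84 ± 0.0935, FDR = 4.78e-12), but its range of 43.8 to 88.9 CPM lay within that of DMSO1, 42.3 to 89.3. Ubtf had 152, 165 and 172 CPM in DMSO2 and 253, 269.9 and 289 with Dox (0.72 ± 0.036, FDR = 8.27e-27). The difference between its effects at 24 and 6 hours was -0.06 ± 0.0507 and did not pass. Rrn3 rose by 0.31 and Ncl by 0.47, while Fbl had 0.11 ± 0.0602 and did not pass.

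The falls at 6 hours were in the Pol I group and 4 other genes. Tcof1 had 40.8, 45.5 and 52.9 CPM in DMSO2 and 21.8, 26.5 and 29.4 with Dox (-0.85 ± 0.0716, FDR = 1.54e-16). Polr1a had 39.3, 45.2 and 53.3 CPM in DMSO2 and 21.9, 28 and 32.04 with Dox (-0.7 ± 0.0712, FDR = 1.54e-13), and Polr1b 18.5, 19.97 and 23.3 CPM in DMSO2 and 13.03, 14.1 and 15.8 with Dox (-0.52 ± 0.0733). These 3 genes did not overlap with their control. Mybbp1a and Dkc1 fell less than at 24 hours (-0.25 ± 0.0473 and -0.28 ± 0.0583), and Gar1 fell by 0.54. Nop14 and Bysl fell at 6 hours (-0.35 ± 0.0434 and -0.46 ± 0.0591) and rose at 24. In the same libraries all 9 endothelial markers were lower, with a median of -1.4, as were 6 of 10 fibroblast markers, with 1 higher. Smooth muscle markers were higher in 5 and lower in 1 of 7, cardiomyocyte markers in 5 and 4 of 11 and macrophage markers in 3 and 2 of 10. The part of these shifts in the changes at 6 hours was not tested.

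The test of the difference between the 2 times passed for 23 genes with Dox, 18 with a higher effect at 24 hours and 5 with a lower one, against 34% and 30.8% of all genes. With library totals alone it was 22 and 2, with a median over all genes of 0.27 in place of 0.07. The difference was largest for Rrp9 (2.18 ± 0.102, FDR = 2.60e-28) and Nop16 (2.01 ± 0.0908, FDR = 5.62e-29). Nop14 went from below to above its control (1.49 ± 0.0614, FDR = 5.18e-31), as did Bysl (1.04 ± 0.0842, FDR = 2.10e-17), and 8.31% of all genes were called in opposite directions at the 2 times. In CPM, Nop14 had 44.7, 48.7 and 52.4 in DMSO2 and 34.7, 37.9 and 39.97 with Dox at 6 hours, and Bysl 37.8, 40.1 and 44.7 CPM in DMSO2 and 23.2, 29.8 and 32.3 with Dox. At 24 hours Bysl had 20.6, 24.4 and 27.1 in DMSO2 and 34.1, 36.1 and 37.9 with Dox. Both genes were clear of their control at each time. The 5 genes with a lower effect at 24 hours were Mybbp1a, Dkc1, Polr1b, Polr1a and Rrp1, with differences of -0.93 to -0.19.

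Because the controls fell between the times, a gene above its control at 24 hours could still be below its 6-hour level. Rrp12 with Dox had 43.8, 77.6 and 88.9 CPM at 6 hours and 33.4, 36.2 and 40.2 at 24, so its level was lower at the later time although it stood above its control. The difference between its Dox effects at the 2 times did not pass (0.17 ± 0.137, FDR = 0.272). Nop16 had 59.04 to 72.7 CPM at 6 hours and 198 to 268 at 24 in the same groups. Its Dox libraries at 24 hours were far above those at 6 hours.

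**Figure D4:**
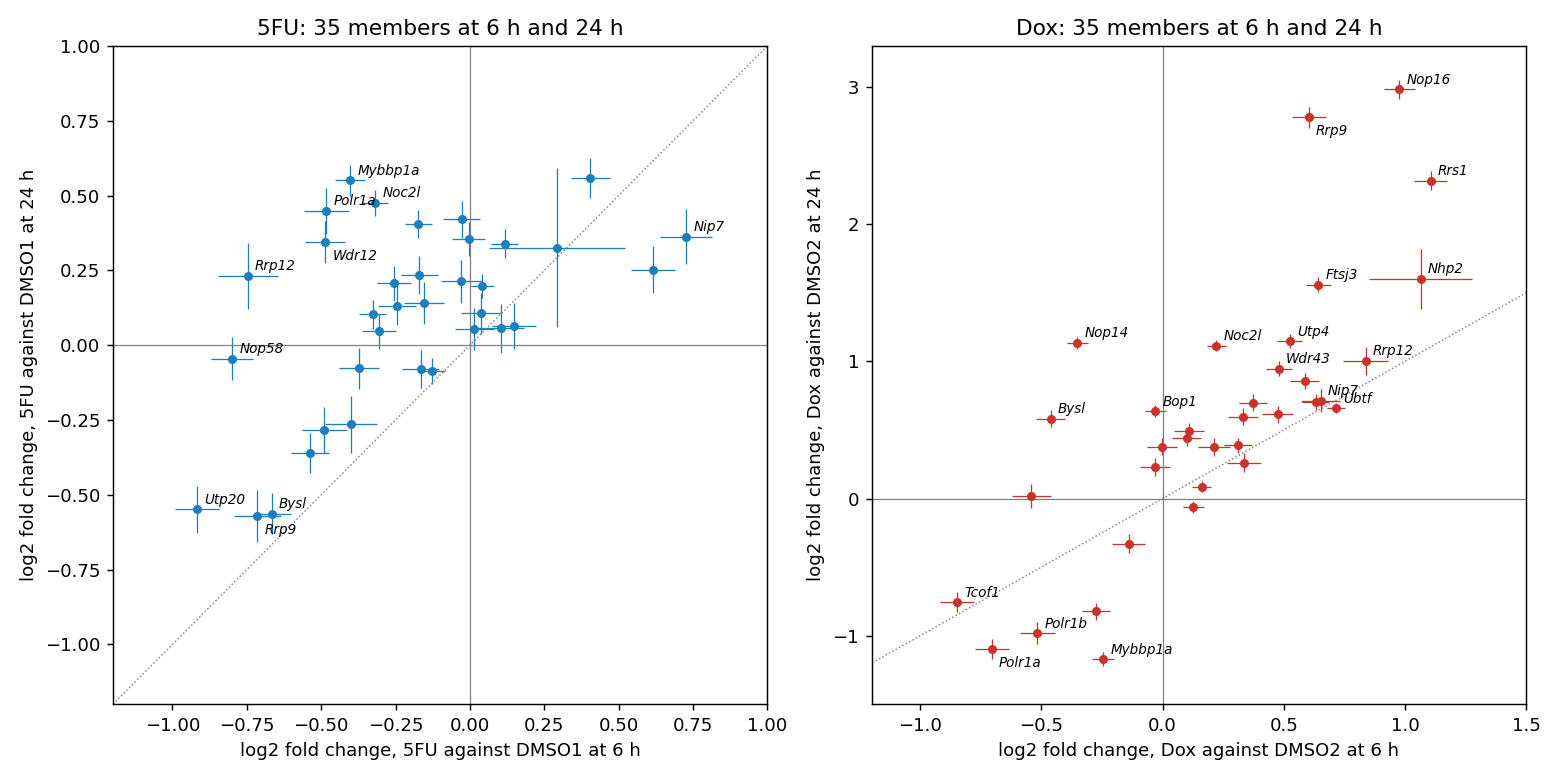
Log2 fold change at 24 hours (y axis) against that at 6 hours (x axis) for the 35 genes (points, with bars of 1 SE), 5FU against DMSO1 on the left and Dox against DMSO2 on the right, with a dotted line where both are equal. With 5FU most points lie above the line, with Mybbp1a, Polr1a, Noc2l and Wdr12 lower at 6 hours and higher at 24; with Dox, Rrp9, Nop16 and Rrs1 lie highest and Polr1a and Mybbp1a lowest.

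With 5FU at 6 hours more of these genes were lower than higher. Of 35, 19 fell and 3 rose, while 24.5% of all genes fell and 23.4% rose, and the median was -0.17. Without the 5 distant libraries it was 22 and 3, with a median of -0.27. The falls took in 6 of 7 small subunit genes, all 3 box C/D proteins, all 3 PeBoW proteins and 3 of the 6 genes of the Pol I group. Since DMSO1 was higher than DMSO2 for 11 of the genes, the 5FU libraries were also set beside both controls, and 8 genes lay wholly below all 13 control libraries, against 11.1% of all genes. They were Fbl, Mybbp1a, Noc2l, Nop56, Nop58, Rrp9, Tcof1 and Utp20. In the same libraries few cell type markers passed, with 3 of 9 endothelial and 2 of 10 fibroblast markers lower and none higher, cardiomyocyte markers higher in 2 and lower in 3 of 11, macrophage markers in 1 and 2 of 10 and smooth muscle markers in 1 and 1 of 7, and their part was not tested.

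Utp20 fell most, from 42.3, 46.1 and 56.2 CPM in DMSO1 to 21.7, 25.5 and 28.5 with 5FU (-0.92 ± 0.0742, FDR = 1.00e-16). Nop58, a core protein of the box C/D snoRNPs, fell from 69.3, 77.1 and 97.7 to 39.2, 45.6 and 54.4 CPM (-0.8 ± 0.0705, FDR = 2.85e-15). Neither overlapped its control. Rrp12 had 38.8, 42.1 and 50.97 CPM with 5FU (-0.75 ± 0.101, FDR = 3.49e-09), which overlapped DMSO1 in library 3 alone and overlapped DMSO2 broadly. Rrp9 had 26.7 to 36.7 CPM in DMSO1 and 18.4 to 22.2 with 5FU (-0.71 ± 0.0788), Nop56 with 89.1 to 128 CPM in DMSO1 and 67.6 to 82.8 with 5FU (-0.54 ± 0.0644) and Fbl with 57.8 to 71.3 CPM in DMSO1 and 45.7 to 57.02 with 5FU (-0.37 ± 0.0656). In the Pol I group, Tcof1, Polr1a and Mybbp1a fell by 0.49, 0.48 and 0.40, while Polr1b, Ubtf and Rrn3 had 0.1 ± 0.0761, 0.04 ± 0.0388 and -0.03 ± 0.062 and did not pass.

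The 3 genes that rose act in 60S assembly or the box H/ACA snoRNPs. Nip7, a 60S factor, went from 16.6, 18.8 and 21.7 to 27.5, 30.3 and 38.2 CPM (0.73 ± 0.0876, FDR = 1.42e-10), and Rrs1 from 21.7, 26.2 and 30.3 to 36.7, 37.6 and 53.2 (0.62 ± 0.0737, FDR = 1.07e-10). Nop10 rose by 0.4. All 3 lay above all 13 control libraries, where 10.9% of all genes lay. The highest Rrs1 value belonged to library 1 of 5FU, one of the 5 distant libraries.

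At 24 hours with 5FU the balance had turned. Of the 35 genes, 15 were higher and 5 lower, over 28% and 27.8% of all genes, and the median was 0.14. The largest single rise was that of Nop10, from 55.8, 60.8 and 70.2 CPM in DMSO1 to 84.04, 88.8 and 105 (0.56 ± 0.0658, FDR = 4.52e-11). Mybbp1a rose from 112, 116 and 121 to 159, 170.2 and 181 CPM (0.55 ± 0.0513, FDR = 1.68e-14). Both were clear of all controls. Rrn3 rose from 75.3, 85.7 and 115 to 116, 118 and 126 CPM (0.42 ± 0.0618, FDR = 2.23e-08), and its highest DMSO1 value was that of library 1, the one with high Mdm2 and Cdkn1a. Polr1a rose by 0.45, Noc2l by 0.48 and Nop14 by 0.4. When the 5 distant libraries were left out, 15 were higher and 6 lower. Nop16 was no longer called (0.19, FDR = 0.017), Rrp12 became higher (FDR = 0.00949), and Gar1 became lower (-0.31). In the same libraries the 11 cardiomyocyte markers summed to 24619 to 26763 CPM with 5FU and 35995 to 43188 in DMSO1, with 7 lower and 1 higher, and all 10 fibroblast markers were lower. Endothelial markers were lower in 6 of 9 and macrophage markers in 5 of 10, and smooth muscle markers were higher in 2 and lower in 4 of 7. Their part in these changes was not tested.

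The 5 genes that were lower at 24 hours were Rrp9, Bysl, Utp20, Nop56 and Tcof1, and each had also fallen at 6 hours. Rrp9 went from 13.2, 16.6 and 18.6 to 9.43, 10.9 and 11.96 CPM (-0.57 ± 0.0872, FDR = 5.57e-08), and Bysl from 18.2, 22.6 and 23.4 to 13.9, 14.8 and 15.4 (-0.56 ± 0.0687, FDR = 1.38e-10). Neither overlapped a control. Utp20, Nop56 and Tcof1 had -0.55 ± 0.0784, -0.36 ± 0.0673 and -0.28 ± 0.0774, and Tcof1 no longer passed without library 2 of DMSO1 (-0.22, FDR = 0.0115). Nop58, so much lower at 6 hours, had 37.7, 42.02 and 45.9 CPM in DMSO1 and 38.1, 40.7 and 43.8 with 5FU, with overlap (-0.05 ± 0.0722, not called).

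The test between the times passed for 19 genes with 5FU, 18 with a higher effect at 24 hours and 1, Rrs1, with a lower one (-0.36 ± 0.107, FDR = 0.00354). The background was 20.3% and 19.2%. Without the 5 distant libraries Rrs1 no longer passed and 19 genes were higher. Rrp12 had the largest difference (0.98 ± 0.15, FDR = 1.47e-07). At 6 hours its DMSO1 level was above that of DMSO2 by 0.83 on the log2 scale, and its 5FU libraries overlapped DMSO2. Mybbp1a, Polr1a, Wdr12, Noc2l, Nop14 and Ftsj3 were lower than their control at 6 hours and higher at 24, with differences of the effects from 0.46 for Ftsj3 to 0.95 for Mybbp1a. Such a turn was called in 5.01% of all genes. Wdr12, Nop14 and Ftsj3 were also higher in DMSO1 than in DMSO2 at 6 hours. With 5FU at 6 hours only Mybbp1a and Noc2l lay below every control library of both DMSO shares. The other genes of this turn overlapped DMSO2, and Nop14, at 44.99 to 50.9 CPM, lay within its range of 44.7 to 52.4. At 24 hours all of them lay above every control library of both shares. In Polr1a the levels were 43.2, 53.2 and 64.6 CPM in DMSO1 and 31.7, 38.8 and 43.05 with 5FU at 6 hours. They were 30.3, 33.4 and 36.3 and 40.8, 45.6 and 48.1 at 24 hours (0.93 ± 0.107, FDR = 8.49e-11 for the difference of the effects). Wdr12 had 22.7 to 27.9 CPM at 6 hours and 25.5 to 27.4 at 24 under 5FU, against 29.9 to 43.6 and 15.8 to 22.8 in DMSO1.

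With Ace the fewest genes of the list passed. At 6 hours 3 were higher and 12 lower, over 16.5% and 15.2% of all genes, with a median of -0.15. Without the 5 distant libraries, none of which was an Ace or DMSO2 library, 3 were higher and 18 lower. Polr1a went from 39.3, 45.2 and 53.3 to 32.6, 35.8 and 37.8 CPM (-0.37 ± 0.0731, FDR = 3.34e-05), Tcof1 from 40.8, 45.5 and 52.9 to 31.8, 37.5 and 39.2 (-0.34 ± 0.073, FDR = 0.000126) and Mybbp1a with 153 to 166 CPM in DMSO2 and 124 to 135 with Ace (-0.31 ± 0.0493). All 3 lay below every control library of that time, as did 9 of the 35 genes and 6.52% of all genes. Ftsj3 and Wdr12 fell by 0.33 each, and the other falls, in Gar1, Noc2l, Bysl, Pes1, Nolc1, Fbl and Bop1, were smaller. Fibroblast markers were lower in 6 of 10, endothelial in 3 of 9, cardiomyocyte in 1 of 11 and macrophage in 1 of 10, and their part was not tested. The 3 that rose were Nop56, from 86.6, 90 and 102 to 105, 110.2 and 122 CPM (0.26 ± 0.0615, FDR = 0.000461), Ncl (0.26 ± 0.0657) and Nop14 (0.17 ± 0.0443).

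At 24 hours with Ace, 4 genes were higher and 6 lower, against 18.2% and 19.1% of all genes, with a median of -0.04. The balance hung on the scaling, since library totals alone gave 6 higher and 2 lower and a median of 0.02. Nop10 rose from 53.8, 60.4 and 67.9 to 74.7, 87.2 and 92.8 CPM (0.49 ± 0.0608, FDR = 4.02e-10) and Nop56 from 49.3, 52.2 and 58.5 to 61.2, 66.3 and 71.4 (0.33 ± 0.0607, FDR = 4.92e-06). With Nop14 (0.21 ± 0.0439), these genes lay above all 13 controls, where 7.15% of all genes lay. Utp20 fell from 24.7, 27.1 and 29.3 to 18.6, 20.4 and 22.2 CPM (-0.41 ± 0.0707, FDR = 2.12e-06), and Gar1, Polr1a, Pes1, Wdr43 and Ubtf were lower by smaller amounts, with Ubtf at -0.11 ± 0.036. The Ubtf call was lost when any of 12 libraries was left out, that of Gar1 with any of 4, Wdr43 with any of 3 and Polr1a with either of 2 (libraries 1 and 4 of DMSO2). Fibroblast markers were lower in 9 of 10, macrophage in 7 of 10, endothelial in 6 of 9, smooth muscle in 4 of 7 and cardiomyocyte in 3 of 11, none was higher, and their part was not tested. The effect at 24 hours was higher than at 6 in 6 genes (Wdr12, Nop10, Nolc1, Ftsj3, Noc2l and Bop1) and lower in none, against 5.58% and 6.06% of all genes. At an unadjusted p below 0.05, 2 had a lower effect, and DESeq2 called none lower.

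Across the 6 drug comparisons every gene passed at least once, 2 passed in all 6 (Polr1a and Nop14), and 18 were higher in at least 1 comparison and lower in at least 1 other. Over all genes the shares were 96.8%, 5.99% and 38.9%. Nop56 was lower with 5FU and higher with Ace at both times. At 24 hours, 6 of the 35 genes were called in opposite directions by 5FU and Dox, a share close to the 16.6% of all genes. Nop56, Rrp9 and Bysl were lower with 5FU and higher with Dox, and Dkc1, Polr1a and Mybbp1a were higher with 5FU and lower with Dox. At 6 hours 8 genes were lower with 5FU and higher with Dox (Nop58, Rrp12, Rrp9, Noc2l, Wdr43, Ftsj3, Nolc1 and Pes1), and none the other way. Of all genes, 4.56% were lower with 5FU and higher with Dox at that time and 9.72% were opposite in either order. Rrp12, Nop58, Wdr43 and Ftsj3 were also higher in DMSO1 than in DMSO2 at 6 hours. Only Rrp9 was below every 6-hour control library with 5FU and above every one with Dox. By library totals alone Nop58, Noc2l and Pes1 did not pass with Dox. The Pes1 call with 5FU was lost when any of 8 libraries was left out.

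The effects of Dox and 5FU, each relative to its own control, differed in most of the list. At 6 hours the Dox effect was higher in 21 genes and lower in 2, against 22% and 24% of all genes. Rrp12 and Rrp9 differed most (1.58 ± 0.137, FDR = 1.17e-15 and 1.32 ± 0.106, FDR = 5.82e-17), and the 2 lower ones were Polr1b and Tcof1. For Rrp12 the 2 controls themselves differed by 0.83, with DMSO1 higher. Its 5FU libraries overlapped DMSO2, and its Dox libraries lay within the range of DMSO1. Nop58, Nop56, Wdr12, Noc3l, Bop1, Wdr43 and Ftsj3, also among the 21, were likewise higher in DMSO1 than in DMSO2 at 6 hours. Gnl3, Bysl and Nop14 were higher in DMSO1 too but did not pass here. The median difference of the effects over the list was 0.44, and the median of DMSO1 against DMSO2 was 0.17. How much of the difference came from the controls was not tested. At 24 hours the Dox effect was higher in 23 and lower in 6, against 35.8% and 35.4%. Rrp9, lower with 5FU and higher with Dox, had the largest difference (3.35 ± 0.114, FDR = 9.14e-36), and Mybbp1a, higher with 5FU and lower with Dox, the most negative (-1.72 ± 0.0709, FDR = 1.47e-31). The other lower ones were Polr1a, Dkc1, Polr1b, Tcof1 and Rrp1. Ace and Dox share the DMSO2 libraries, so only their own values are given above.

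**Figure D5:**
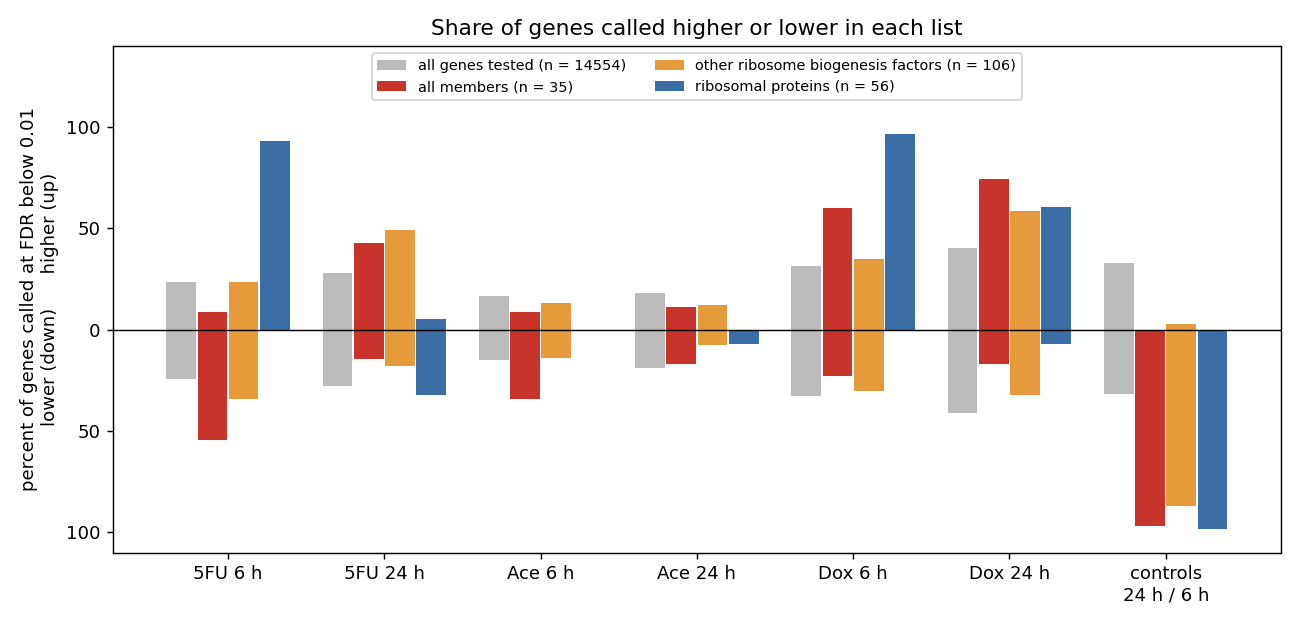
Percent of genes called higher (bars above 0) or lower (bars below 0) at an FDR below 0.01 in each drug comparison and in the controls at 24 against 6 hours, for all 14554 genes, the 35 genes described here, 106 other ribosome biogenesis factors and 56 ribosomal protein genes. At 6 hours with 5FU the ribosomal protein bar points up and that of the 35 genes mostly down; with Dox at 24 hours all 3 lists lean up.

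The same pathway was read in 106 other ribosome biogenesis factors. With Dox at 24 hours 62 were higher and 34 lower, with a median of 0.31, and at 6 hours 37 and 32, with 0.01. These are 58.5% and 32.1%, then 34.9% and 30.2%, so the 6-hour shares were close to those of all genes given above. Scaling by library totals alone turned the 6-hour split to 23 higher and 49 lower, with a median of -0.14. Of the 106, 12 are other Pol I factors. With Dox at 24 hours 6 of these were higher and 6 lower (50% each), with a median of -0.03. At 6 hours 3 were higher and 5 lower (25% and 41.7%). Polr1g, a subunit of Pol I itself, went against Polr1a and Polr1b, from 10.6, 11.5 and 12.8 CPM in DMSO2 to 71.1, 78.4 and 99.7 with Dox at 24 hours (2.83 ± 0.0849, FDR = 1.41e-39). Mak16, a 60S factor, went from 11.7, 13.6 and 15.9 to 84.4, 90.4 and 93.98 CPM (2.69 ± 0.0787, FDR = 4.01e-40). The largest falls at 24 hours were in Gnl3l, a nucleolar GTPase related to Gnl3 (-1.85 ± 0.0522), and the helicase Ddx55 (-1.6 ± 0.0773). At 6 hours Mak16 and Polr1g were higher by 1.44 and 0.87, and Ddx55 and Ddx31, another helicase, had -1.56 and -1.09.

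With 5FU, 25 of the 106 were higher and 36 lower at 6 hours (17 and 41 by library totals alone) and 52 and 19 at 24. These are 23.6% and 34%, then 49.1% and 17.9%, so more were higher at 24 hours than among all genes. The 12 other Pol I factors among them mostly rose at 6 hours, unlike the 6 genes of the Pol I group. Of the 12, 8 were higher and 1 lower (66.7% and 8.33%), and at 24 hours 5 and 1. Among all 106, the largest changes at 6 hours were in Taf1a and Taf1c, parts of the Pol I promoter factor SL1 (0.8 ± 0.109 and 0.77 ± 0.0752), and in Pak1ip1 and Mdn1 of the 60S pathway (-1.18 ± 0.0761 and -1.01 ± 0.11). At 24 hours Polr1c, a subunit shared by Pol I and Pol III, rose by 1.28 and the processome protein Tbl3 by 0.83, and Nol12 and Mdn1 had -0.89 and -0.71. With Ace, 14 were higher and 15 lower at 6 hours and 13 and 8 at 24 (9 and 25, then 22 and 7, by library totals alone). These are 13.2% and 14.2%, then 12.3% and 7.55%, each below the share of all genes. The 12 other Pol I factors had 5 higher and 1 lower at 6 hours (41.7% and 8.33%), then 2 and 0. The widest Ace values were those of Tgs1, Polr1f, Nol12 and Wdr36 at 6 hours (0.41, 0.35, -0.46 and -0.37) and of Shq1, Rbm28, Rrp8 and Nol12 at 24 (0.48, 0.37, -0.38 and -0.36). All were smaller than the largest changes with the other drugs.

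Ribosomal protein genes did not follow the 35 genes everywhere. At 6 hours 52 of 56 were higher with 5FU and none lower, with a median of 0.32 (38 of 56 by library totals alone), while the ribosome biogenesis genes mostly fell. With Dox 54 were higher at 6 hours, with a median of 0.43, and at 24 hours 34 were higher and 4 lower. At 24 hours with 5FU 3 were higher and 18 lower, and with Ace 0 and 4 at 24 hours. None passed with Ace at 6 hours.

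The unused 5S particle of Rpl5 and Rpl11 is known to hold Mdm2 away from p53 when ribosome assembly is disturbed, so this axis was read beside the list. Mdm2 was higher with 5FU (1.82 ± 0.158 at 6 hours and 1.34 ± 0.156 at 24), with Dox (0.9 ± 0.145 and 2.81 ± 0.151) and with Ace at 24 hours (0.91 ± 0.145). Cdkn1a, the cell cycle inhibitor that p53 induces, had 1.87 and 2.1 with 5FU, 2.46 and 3.44 with Dox and 0.7 and 1.17 with Ace, all passing. Rpl5 had 0.21 and -0.4 with 5FU and 0.32 and -0.27 with Dox. It thus passed as higher at 6 hours and as lower at 24 with both drugs. With Dox at 24 hours it went against most ribosomal protein genes, of which 34 of 56 were higher and 4 lower. Rpl11 is named only, so Rpl5 does not stand for the particle. Bccip, which takes part in 60S assembly, was higher with 5FU at 24 hours and lower with Dox (0.5 ± 0.0816 and -1.58 ± 0.0846). The 24-hour 5FU values include library 1 of DMSO1 described above.

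Myc proteins are known to drive many ribosome biogenesis genes through E-boxes, but no binding was measured here. Transcripts of Myc, its relatives and its partners moved differently by drug. Myc went from 12.1, 12.8 and 15.4 CPM in DMSO1 to 3.55, 4.98 and 8.54 with 5FU at 6 hours (-1.31 ± 0.153, FDR = 5.09e-11). At 24 hours it went from 4.501, 12.3 and 14.1 to 2.63, 3.05 and 3.52 (-1.87 ± 0.167, FDR = 3.11e-15). With Dox it fell at 6 hours (-0.95 ± 0.139, FDR = 1.37e-08) and had 0.26 ± 0.129, FDR = 0.0605 at 24. Mycl, a relative of Myc, was close to 0 in the controls, with 0.0582 to 0.374 CPM in DMSO2 at 24 hours, and had 7.48, 9.696 and 14.1 with Dox, without overlap. At 6 hours it had 0.102 to 0.519 CPM in DMSO2 and 4.44, 5.55 and 6.35 with Dox. Mxd1 and Mxi1, which compete with Myc for its partner Max, were higher with Dox at 24 hours by 3.27 and 1.44, and Max had -0.31 ± 0.0428. Mycn was lower with 5FU at 24 hours (-1.6 ± 0.123).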

How the data were processed

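PolyA RNA of 65 samples was sequenced. The authors deposited 1 table of estimated counts per gene, made with kallisto 0.46.0 per the submitters' processing notes and, per the study's methods, rat Ensembl transcripts and tximport. Columns carry group names only, so libraries were numbered by column order, as names. Estimated counts were rounded. Symbols came from RefSeq's GRCr8 annotation (14009 of 14554 genes). Genes needed 10 counts in 1 library, which removed none. edgeR 4.0.16 (R 4.3.3, TMM scaling, quasi-likelihood test) was fitted to all 10 groups together, and a gene was called at an FDR (Benjamini-Hochberg adjusted p over all genes) below 0.01. Log2 fold changes are given ± SE, which is the log2 fold change divided by the square root of F. CPM divide a count by its TMM-scaled library total. Scripts were tested on simulated data. Library totals were 14332827 to 25738297, and precision rests on the spread between cultures and the number of libraries as well as on depth. DESeq2 1.42.0, other scalings, an FDR of 0.1, separate fits and left-out libraries were the alternatives.

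The members and lists were chosen with earlier results of these data known. Named were the 2 largest rises and 2 largest falls per drug comparison, members called in opposite directions by 2 drugs at 1 time or by 1 drug at 2 times, Polr1a, Polr1b, Ubtf, Rrn3, Fbl, Dkc1 and Ncl, the same extremes of the wider pathway, and genes of the 5S particle and Myc lists. Further members were named by role after their values were seen. Counts of small genes with possible near-identical copies, such as Nhp2 and Nop10, are uncertain. Columns of the authors' own comparisons were not used.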

Additional observations from a re-analysis of the deposited data

Results flagged for a closer look

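Single libraries stood far from the rest of their group, by Dixon's test, in 12 of 290 sets of values. That share is no higher than the 1 in 20 or so that chance alone would give. Rrs1 at 53.2 CPM and Bysl at 38.5 CPM stood out in library 1 of 5FU at 6 hours. Bysl stood at 23.2 CPM in library 7 and Gar1 at 11.3 CPM in library 4 of Dox at 6 hours. In DMSO1 at 24 hours, library 2 stood out in Ftsj3 (39.96 CPM) and Wdr12 (15.8 CPM) and library 6 in the median deviation over the members (-0.22 on the log2 scale). Ftsj3 stood at 43.7 CPM in library 6 of DMSO2 at 24 hours and Nop58 at 44.1 CPM in library 4 of Ace at 24 hours. With Dox at 24 hours, Nip7 stood at 27.4 CPM in library 6, and Ncl at 872 CPM and Tcof1 at 16.8 CPM in library 7.

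Effects differed between times in 19 members with 5FU, 6 with Ace and 23 with Dox, and between Dox and 5FU in 23 members at 6 hours and 29 at 24 hours, each by edgeR's test of the difference. Between 24 and 6 hours the 5FU effect changed direction in Nop14 (difference 0.58), Wdr12 (0.83), Ftsj3 (0.46), Noc2l (0.79), Polr1a (0.93) and Mybbp1a (0.95), and the Dox effect in Nop14 (1.49) and Bysl (1.04).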

How the results depend on the processing

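No paired analysis was possible because the count columns carry no replicate numbers. When libraries were scaled by their totals alone, the median log2 fold change of the members turned from negative to positive with Ace at 24 hours (0.023) and in DMSO1 against DMSO2 at 24 hours (0.017). It moved to 0.068 with Dox at 6 hours, 0.644 with Dox at 24 hours, 0.2 and 0.47 for the differences between times with Ace and Dox, and 0.357 and 0.562 for Dox minus 5FU at 6 and 24 hours. The count of members called in DMSO1 against DMSO2 at 6 hours was 4 with that scaling and 4 when those groups were fitted alone. An FDR of 0.1 gave 16 with Ace at 24 hours, 10 for the Ace difference between times, and 20 and 1 for DMSO1 against DMSO2 at 6 and 24 hours. Without the 5 distant libraries, chosen after seeing the data, the 5FU median at 6 hours was -0.271, and the counts were 10 for the Ace difference between times and 18 for DMSO1 against DMSO2 at 6 hours.

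With each library left out in turn, the 5FU median at 24 hours ran from 0.115 to 0.197, and the DMSO1 against DMSO2 count at 6 hours from 4 to 16. It was 4 without library 2 and 6 without library 6 of DMSO1, and the median of 0.197 came without library 4 of 5FU. Calls lost on leaving out single libraries were those of Pes1 with 5FU at 6 hours (any of 8 libraries), Nop16 (any of 5), Rrs1 (library 1 of DMSO1) and Tcof1 with 5FU at 24 hours, Fbl (any of 8), Gar1 (library 2 of Ace) and Nolc1 (library 6 of Ace) with Ace at 6 hours, Nop58 with Dox at 6 hours (library 1 of DMSO2 or 4 of Dox), and 4 calls with Ace at 24 hours given above. The causes were not tested. Changes that are small beside the spread between cultures could be missed with 6 or 7 libraries per group.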
